A study of Mus musculus with 14 samples.

Results

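Qk5 depletion was compared with control in C2C12, a line of mouse myoblasts able to form muscle fibres in culture, across all genes and all exon bins of the deposited tables. The comparison takes every sample labelled Qk5 depletion and every sample labelled control, which is 8 of the 14 samples of the study, or 3 replicates of each group and 6 of 10 replicates in all. Replicate 1 of each group was sequenced in 2 runs, which count as 1 replicate. Both groups were grown in high-glucose DMEM with 10% FBS and transfected with Lipofectamine 2000, the controls with control siRNA and the depleted cells with siRNA directed at the Qk5 isoform. The other groups of the study were Qk6/7 depletion (3 replicates) and panQk depletion (1 replicate, not analysed here). RNA was purified with TRIzol, cleared of ribosomal RNA and sequenced, and the question was which RNAs change in level or in splicing when 1 isoform is removed.

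Quaking, encoded by Qk, is an RNA-binding protein of the STAR family that binds short RNA words built around ACUAA. Its transcripts end in different exons, so the isoforms share the RNA-binding domain and differ at the C-terminus, and Qk5 is the isoform that carries a nuclear localisation signal. In vertebrate muscle and glia it is known as a splicing regulator: bound upstream of an exon it tends to lower the use of that exon, and bound downstream it tends to raise it.

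The values are the authors' own results, given as a mean per group, a fold and an adjusted p, with no value per replicate. The depth of each sample is therefore unknown, no SD or interval can be attached to any level or fold, and whether the groups overlap cannot be seen. Whether replicates were separate cultures is not stated in the labels, so the p-values speak only for variation among these samples, possibly technical. A level is a mean normalized count (reads divided by a size factor). It is not divided by gene length, so levels of different genes are not an order of abundance. In bulk RNA, fewer cells of a type and less RNA per cell cannot be told apart.

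Qk itself fell. Its mean normalized count was 5875 in the controls and 3267 in the depleted cells, a fold of 0.556 in the authors' deposited table (adjusted p = 0.00246 by the authors' DESeq). This is a value for the whole gene, and the bin table holds 0 Qk bins, so loss of the Qk5 form alone could not be read from the data. Of 10 myoblast markers 2 were in the authors' deposited table, Myog, raised, and Myf5, not called. That table stops at an adjusted p of 0.1 in either depletion, so the other 8 are known only not to have met that limit or not to have been tested. The same holds for the markers of other cell types. No listed marker of endothelial cells, adipocytes, smooth muscle or myelinating glia was in it. Of 8 macrophage markers it held Cd68, not called, and of 7 osteoblast markers it held Phex, raised 2.55-fold, and Runx2, not called. What part such cells might have in the results was not tested.

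Genes rose more often than they fell. At an adjusted p under 0.05, 493 of the 16604 genes tested were called, which is 2.97% of them, 360 raised (2.17% of genes tested) and 133 lowered (0.801%), counted in the authors' deposited table. In it the raised genes had a median fold of 2.29 (range 1.51 to 26.3), and 237 of them, 65.8%, at least doubled. The lowered genes had a median fold of 0.526 (range 0.103 to 0.649), and 55 of them, 41.4%, fell to 0.5 or below of the control level. Raised genes started low, with a median control mean of 108.9 normalized counts, and lowered genes started higher, at 774.6. Where the mean of both groups was under 20 normalized counts, 25 genes were raised and 3 lowered, and where it was 1000 or more, 48 were raised and 45 lowered. The median fold of raised genes was 5.22 in the lowest of these level classes and 1.81 in the highest. The control mean is the base of each fold, and at few reads only a large fold can be called. These contrasts with level therefore follow in part from the calling. Just inside the threshold lay Ptp4a1 (adjusted p = 0.0494), and just outside it lay Cobra1 (adjusted p = 0.0504), both by the authors' DESeq.

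**Figure D1:**
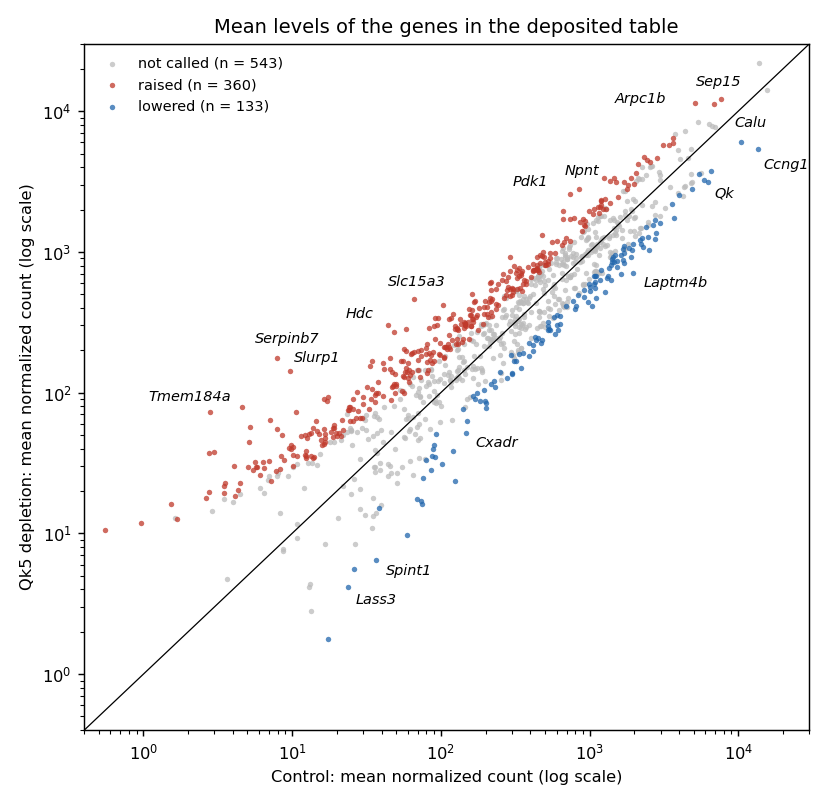
Mean normalized count in control cells (horizontal, log scale) against Qk5-depleted cells (vertical, log scale) for the genes of the deposited table, 1 point per gene, with raised genes in red, lowered genes in blue and genes not called in grey. The line marks equal levels. Red points are most of the called points below 100 normalized counts, while at 1000 or more the 48 raised and 45 lowered genes lie on both sides of the line in like number.

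The genes with the smallest adjusted p were all raised, and several are best known from epithelia, immune cells or nerve rather than from muscle. Serpinb7, an intracellular serine protease inhibitor of the epidermis, went from 7.86 to 177 normalized counts, 22.5-fold in the authors' deposited table (adjusted p = 1.95e-28 by the authors' DESeq). Slurp1, a secreted protein of keratinocytes, went from 9.72 to 141 in the authors' deposited table, 14.5-fold. Sprr1b, a precursor of the cornified envelope of skin, went from 4.59 to 79.5, and Tmem184a, a membrane protein, from 2.79 to 73.3, the largest fold of all called genes at 26.3 in the authors' deposited table. The control levels of these 4 genes were all under 10 normalized counts, so their folds rest on few reads in the control cells.

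Others of this rank were well above that level in control cells. Hdc, the enzyme that makes histamine from histidine, rose from 44.4 to 301 normalized counts (6.78-fold), and Slc15a3, a lysosomal transporter of peptides and histidine, from 65.6 to 462 (7.04-fold), in the authors' deposited table. Scn7a, an atypical sodium channel that senses sodium, rose from 103 to 422 in the authors' deposited table, which is 4.1-fold. Apob, the protein scaffold of lipoprotein particles, rose from 34.6 to 167 and Plxna4, a semaphorin co-receptor, from 58.1 to 282 in the authors' deposited table. Pdk1, a kinase that switches off pyruvate dehydrogenase, rose from 741 to 2593, 3.50-fold in the authors' deposited table (adjusted p = 6.66e-13 by the authors' DESeq).

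In absolute terms the largest rise was that of Arpc1b, a subunit of the actin-nucleating Arp2/3 complex, from 5085 to 11507 normalized counts in the authors' deposited table (2.26-fold, adjusted p = 1.51e-05 by the authors' DESeq). Sep15, a selenoprotein of the endoplasmic reticulum, followed, from 7705 to 12286, and then 2900097C17Rik, from 6891 to 11265, in the authors' deposited table. Further genes of this size encode proteins of the cell surface or matrix: Ly6a (Sca-1, 3612 to 6478), Vcan (versican, 2309 to 4722), Gja1 (connexin 43, 2121 to 4234) and Fbn1 (fibrillin 1, 1259 to 3343), in the authors' deposited table. Lamp2, a lysosomal membrane protein, rose from 3141 to 5711 in the authors' deposited table. Ywhah, Ptp4a1, Mfsd1 and Npnt complete the 12 largest, with folds between 1.62 and 3.31 in the authors' deposited table.

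The largest absolute fall was that of Ccng1 (cyclin G1, a p53 target), from 13540 to 5366 normalized counts in the authors' deposited table, 0.396-fold (adjusted p = 1.85e-07 by the authors' DESeq). Calu, a calcium-binding protein of the secretory pathway, fell from 10462 to 6081, and Nras, a small GTPase of growth signalling, from 6226 to 3161, in the authors' deposited table. Fscn1 (fascin), which bundles actin filaments, fell from 6557 to 3769 and Cd151, a tetraspanin that binds laminin-binding integrins, from 4855 to 2799, in the authors' deposited table. Ptpn11 (SHP2), a tyrosine phosphatase downstream of growth factor receptors, fell from 5476 to 3554 in the authors' deposited table. The mitochondrial genes Ndufa4 (3722 to 1746) and Cox6a1 (2736 to 1226) and the proton pump subunit gene Atp6v0e (2803 to 1366) each fell to less than 0.5 of control in the authors' deposited table. Aldh3a1 and Glipr2, with Qk itself, complete the 12.

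Below the table's median level of 298.8 normalized counts, the largest falls included Spint1, a Kunitz inhibitor of membrane serine proteases, from 36.9 to 6.44 in the authors' deposited table. Cxadr, a junctional adhesion protein and virus receptor, fell from 148 to 51.8, Mctp2 from 101 to 31.3, and Ccdc3 from 120 to 38.5 in the authors' deposited table. H60b, a ligand of the NKG2D receptor, Prr9 and Atp6v0e2 also fell, to between 0.324 and 0.382 of control in the authors' deposited table. Among the large rises below the median level were Col14a1, a fibril-associated collagen, from 7.12 to 64.2, Prg4 (lubricin), which lubricates joints, from 2.96 to 38.1, and Cd200r4, from 5.12 to 44.6, in the authors' deposited table.

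Serpinb7 was not alone in its family. Grouped by the root of their symbols, a grouping made after the values were seen and therefore given without a test, 12 of 28 annotated Serpinb genes were in the authors' deposited table, 11 of them raised and 0 lowered. For scale, 2.17% of all genes tested were raised. Serpinb genes encode clade B serpins, protease inhibitors that stay inside the cell. Serpinb6c went from 2.77 to 37.5 normalized counts, Serpinb9g from 10.5 to 73.0 and Serpinb6b from 96.1 to 341 in the authors' deposited table. Serpinb1a, an inhibitor of neutrophil-type proteases, went from 334 to 762, and Serpinb9b from 1293 to 2008, the smallest fold of the family at 1.55 in the authors' deposited table. Serpinb9, 9b, 9c, 9e, 9f and 9g are close paralogs. Reads may be shared among them, so the separate values of the 6 are uncertain.

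Of these 11 genes 10 lie in 1 cluster. In the gene order of RefSeq, the 10 stand within a span of 15 genes, every one of the 10 raised, 1.55-fold to 13.5-fold in the authors' deposited table. Serpinb7 is the one outside it. Other called genes also had called neighbours: of 452 called genes placed in that order, 121 had another called gene with at most 3 genes between. How many would have one by random placement alone was not computed, so the 121 is a count without a reference. There were 8 runs of at least 3 such called neighbours, holding 34 raised genes and 1 lowered gene, while raised genes were 328 of the 452 placed. They include Ly6a, Ly6c1 and Ly6c2 (1.79-fold to 2.93-fold), the skin genes Sprr2k, Sprr1b and Sprr1a (2.52-fold to 17.3-fold), and Pcdhb14, Pcdhb16 and Pcdhb17, protocadherins of neuronal adhesion (1.70-fold to 3.05-fold), in the authors' deposited table. A run of 6 chromosome 2 zinc finger genes rose 1.85-fold to 2.21-fold in the authors' deposited table. Ly6, protocadherin and zinc finger neighbours are near-identical copies in part, so reads may be shared there too.

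Genes of epithelial attachment and of the epithelial cytoskeleton, taken after their values were seen, were also called. The laminin chain genes Lama3 and Lamb3 rose from 17.2 to 87.3 and from 344 to 703 normalized counts in the authors' deposited table. Of the keratins Krt8 rose from 24.2 to 79.3 and Krt14 from 165 to 317, while Krt19 fell from 807 to 414 in the authors' deposited table. Among semaphorins, secreted or membrane guidance cues, Sema3c rose from 667 to 1699, and Sema3b, Sema3d and Sema4f rose 1.66-fold to 2.29-fold, while Sema7a fell from 1450 to 852, in the authors' deposited table. Casp1 and Casp4, inflammatory caspases, rose 3.19-fold and 2.49-fold by the authors' deposited table.

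**Figure D2:**
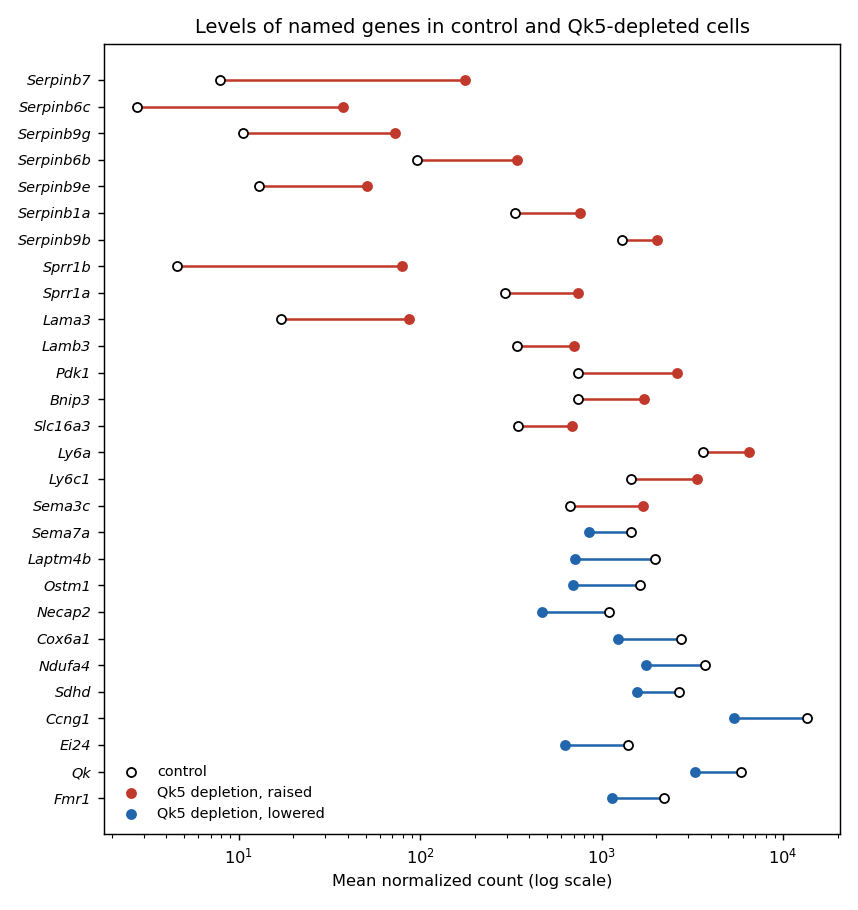
Mean normalized count (horizontal, log scale) of called genes in control cells (open circles) and Qk5-depleted cells (filled circles, red where raised, blue where lowered), 1 gene per line. The Serpinb genes start anywhere from 2.77 (Serpinb6c) to 1293 (Serpinb9b) normalized counts and all move to the right, as do Pdk1 and Bnip3. Laptm4b, Ostm1, Necap2, Cox6a1, Ndufa4 and Sdhd move left, from control levels of about 1100 (Necap2) or more.

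Muscle genes outside the sarcomere that were called were all raised. Of 45 genes of the costamere and Z-disc surroundings, which tie myofibrils to the membrane and to each other, 12 were in the authors' deposited table, 10 raised (22.2% of those listed, against 2.17% of all genes tested) and 0 lowered. The 12 had a median log2 fold of 1.37, against 0.45 for all genes of the authors' deposited table. Genes enter that table by their adjusted p in either depletion, and 10 of the 12 are the raised calls themselves. This median, and those of the lists below, therefore restate the calls in part and add no support to them. Mustn1, a small nuclear protein of muscle and cartilage, went from 293 to 919 normalized counts and Klhl31, a muscle Kelch protein, from 33.6 to 154 in the authors' deposited table. Synpo2l, Synpo2 and Pdlim3, which bind actin or actinin at the Z-disc, had folds of 2.61, 1.95 and 1.72 in the authors' deposited table. Kbtbd10, the syntrophin gene Sntb1 and the muscle ubiquitin ligase gene Fbxo32 rose 1.66-fold to 2.66-fold in the authors' deposited table. Hspb7, a small heat shock protein of heart and muscle, went from 1.54 to 16.1 in the authors' deposited table, a level at which the fold rests on few reads.

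Of 40 genes of excitation and the neuromuscular junction 3 of 4 in the table were raised (7.5% of those listed, against 2.17% of all genes tested) and 0 lowered. With Scn7a they were the calcium channel subunit genes Cacnb1 (56.0 to 132) and Cacng1 (512 to 805) in the authors' deposited table. Among 23 myogenic regulators 2 were raised (8.7% of those listed) and 0 lowered. Myog (myogenin), which drives terminal differentiation, rose from 154 to 390 normalized counts, and Smyd1, a methyltransferase of myofibril assembly, from 83.3 to 190, in the authors' deposited table. For scale, 18 of 45 sarcomere genes were raised (40%) and 0 lowered. Of 37 interferon response genes 1 was raised (2.7%) and 5 were lowered (13.5%, against 0.801% of all genes tested).

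Called matrix genes were mainly raised. Of 86 extracellular matrix genes 22 were in the authors' deposited table, with a median log2 fold of 0.68. Of the 86, 9 were raised (10.5%, against 2.17% of all genes tested) and 2 lowered (2.33%, against 0.801%). Dcn (decorin), a small proteoglycan that binds collagen, went from 660 to 1951 normalized counts, Npnt (nephronectin), a ligand of integrin alpha 8, from 845 to 2795, and Postn (periostin) from 143 to 319 in the authors' deposited table. Col12a1, Aspn (asporin) and the metalloproteinase gene Mmp19 rose 2.02-fold to 2.46-fold in the authors' deposited table. Col7a1, the collagen of anchoring fibrils, fell from 185 to 87.0, and Plod1, a collagen lysyl hydroxylase, from 1103 to 678 in the authors' deposited table. Of 42 TGF-beta genes 9 were in the authors' deposited table, with 3 raised (7.14% of those listed), 0 lowered and a median log2 fold of 0.79. These were the ligand gene Tgfb1 (416 to 817), Itgb6 (158 to 356), part of an integrin that activates latent TGF-beta, and the target Ctgf (787 to 1743), in the authors' deposited table.

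Called cytokine and growth factor genes were mainly raised, while Notch and Wnt genes were called in both directions. Of 44 cytokine and chemokine genes 9 were in the authors' deposited table, with a median log2 fold of 0.95. Of the 44, 6 were raised (13.6%, against 2.17% of all genes tested) and 0 lowered. The chemokine gene Cxcl10, counted here with the interferon response genes, fell from 17.3 to 1.78 normalized counts, the lowest fold of all lowered genes at 0.103 in the authors' deposited table. The chemokine gene Ccl8 rose from 41.5 to 148 normalized counts, the epithelial cytokine gene Tslp from 45.5 to 147, and the alarmin gene Il33 from 291 to 546, in the authors' deposited table. Il1rl1, the receptor of IL-33, rose 3.45-fold, and Hpgd, which breaks down prostaglandins, 3.37-fold, in the authors' deposited table. Of 66 growth factor and receptor genes 5 rose (7.58% of those listed) and 1 fell (1.52%), the 10 in the authors' deposited table having a median log2 fold of 0.64. Igfbp4 rose from 234 to 544, the GDNF receptor gene Gfra1 from 181 to 401, Hgf from 388 to 776, Fgf10 from 19.2 to 58.5 and Kitl from 1563 to 2455, while the EGF-family ligand gene Areg fell from 632 to 349, in the authors' deposited table. Of 61 Notch and Wnt genes 2 rose (3.28% of those listed) and 3 fell (4.92%, against 0.801% of all genes tested). The median log2 fold was -0.61 over the 8 in the authors' deposited table. Wnt10b and Tcf7 rose 2.05-fold and 1.76-fold, while Wnt4, the Wnt inhibitor gene Apcdd1 and Notch1 fell to 0.472, 0.541 and 0.598 of control in the authors' deposited table.

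Genes of glucose use and of respiration were called in both directions. Of 69 glycolysis, pyruvate and hypoxia genes 9 were in the authors' deposited table, with a median log2 fold of 0.81. Of the 69, 5 were raised (7.25%) and 1 lowered (1.45%). Besides Pdk1, the raised genes were Bnip3, a mitophagy receptor (744 to 1707 normalized counts), Slc16a3, the lactate exporter MCT4 (345 to 689), the neuronal enolase gene Eno2 (109 to 203), and Ankrd37 (82.6 to 145), in the authors' deposited table. Dera, an aldolase of deoxyribose phosphate, fell from 1039 to 409 in the authors' deposited table. Of 95 oxidative phosphorylation genes 5 were in the authors' deposited table, 2 raised and 3 lowered. The raised ones are 2.11% of those listed, which is at the 2.17% of all genes tested, and the lowered ones 3.16%, against 0.801%. Cox6a1, Ndufa4 and the succinate dehydrogenase subunit gene Sdhd fell to 0.448, 0.469 and 0.581 of control, while Cox7a1 and Cox8b, cytochrome oxidase subunits of heart and muscle, rose from 40.6 to 95.3 and from 6.43 to 29.2 in the authors' deposited table.

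Promoters of the 5 raised glycolysis, pyruvate and hypoxia genes were searched for ACGTG on either strand, the core letters of the element bound by hypoxia-inducible factor, in the 250 bases before the start. The sequences are those of RefSeq (GRCm38.p6). The word was found before 3 of the 5 genes, Bnip3, Slc16a3 and Ankrd37, and not before Pdk1 or Eno2. It was present before 18.5% of all 27025 genes with a promoter sequence, 15.8% of the 259 raised and 18.6% of the 97 lowered genes that had one, so the called genes as a whole did not hold it more often than the rest. A match is a run of letters and not a shown site. Each of the 3 genes holds it at 2 positions, and the stretches of Bnip3 and Slc16a3 are shown because there both positions lie close together, in capitals. In Bnip3 these overlap as the palindrome CACGTG, which is the word once on each strand. They lie at chr7:138909580-138909644, minus strand, and chr11:120949010-120949066, plus strand.
Bnip3: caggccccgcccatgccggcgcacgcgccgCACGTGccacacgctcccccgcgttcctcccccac
Slc16a3: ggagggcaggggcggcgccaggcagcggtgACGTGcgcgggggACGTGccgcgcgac

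Iron, lipid, redox and lysosomal genes gave smaller counts, to be read against the 2.17% of all genes tested that were raised and the 0.801% lowered. Of 39 iron and heme genes 3 rose (7.69% of those listed) and 0 fell: Slc40a1 (ferroportin, the iron exporter) from 213 to 602 normalized counts, the ferroxidase gene Cp (ceruloplasmin) from 283 to 561, and Hfe2 (hemojuvelin) from 47.1 to 109, in the authors' deposited table. Of 68 lipid genes 4 rose (5.88%) and 0 fell, among them the retinoic acid carrier gene Crabp2 (258 to 634), Dhrs3, which reduces retinal (274 to 618), and the lipid droplet coat gene Plin4 (335 to 670), in the authors' deposited table. Of 61 glutathione and NRF2 genes 13 were in the authors' deposited table, 0 raised and 3 lowered (4.92%). Of the 13, 10 were called as lowered in Qk6/7 depletion, which shares the controls, so most had met the table's limit through that comparison. Aldh3a1, an aldehyde dehydrogenase, fell from 2515 to 1037, and the glutathione transferase genes Gsta2 and Gsta3 fell to 0.452 and 0.217 of control in the authors' deposited table. Gsta genes are close paralogs whose reads may be shared. Of 109 listed lysosome and late endosome genes 2 rose (1.83%, under the share of all genes tested) and 4 fell (3.67%). These counts depend on which genes were listed. Slc15a3, the lysosomal transporter described above, is not on this list and rose 7.04-fold in the authors' deposited table. Laptm4b, a late endosomal membrane protein, fell from 1960 to 710, Ostm1, the partner of a lysosomal chloride transporter, from 1626 to 697, Necap2 from 1100 to 467 and the sulfatase gene Galns from 469 to 225, while the cystine exporter gene Ctns rose from 161 to 386, in the authors' deposited table.

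**Figure D3:**
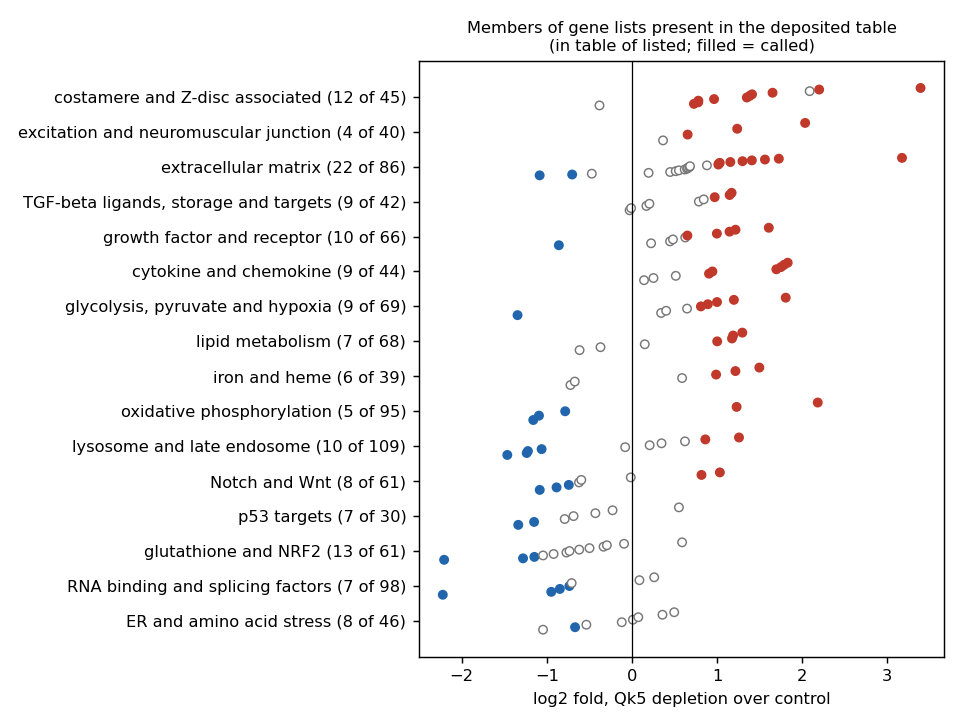
log2 fold of Qk5 depletion over control (horizontal) for the members of 16 gene lists that are in the deposited table, 1 circle per gene, filled red where raised, filled blue where lowered and open where not called. Numbers in brackets are members in the table and members listed. The costamere and Z-disc list has 10 filled circles, all to the right of 0, the glutathione and NRF2 list 3, all to the left, and the oxidative phosphorylation list 2 to the right and 3 to the left.

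A few p53 target, cell cycle and RNA-binding genes fell, and no listed member of these groups rose. Of 30 p53 targets 0 rose and 2 fell (6.67% of those listed, against 0.801% of all genes tested), Ccng1 and Ei24, an endoplasmic reticulum protein of autophagy (1402 to 632 normalized counts), in the authors' deposited table. Of 54 cell cycle genes 0 rose and 2 fell (3.7%), the cyclin D2 gene Ccnd2 (2305 to 1084) and Psrc1, a spindle protein (347 to 150), in the authors' deposited table. The cyclin G2 gene Ccng2, which is on neither list and was taken after its values were seen, rose from 557 to 1172 in the authors' deposited table. The tubulin-folding cofactor gene Tbcb fell from 1261 to 515 while the neuronal tubulin gene Tubb3 rose from 1700 to 3159 in the authors' deposited table. Of 98 RNA-binding and splicing factor genes 0 rose and 4 fell (4.08%). Besides Qk these were Fmr1, the fragile X translational regulator (2203 to 1142), Rbpms2 (991 to 595) and Igf2bp1, an mRNA-stabilising protein of embryonic cells (26.0 to 5.58), in the authors' deposited table. Of 21 reported Qk targets 1 was in the authors' deposited table, Adam22, a receptor for a neuronal secreted ligand, which rose from 83.9 to 288. Of 51 ribosomal protein genes 0 were in it, and of 46 stress-response genes 1, the chaperone gene Pdia4, fell (0.629-fold in the authors' deposited table).

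Many lowered genes held a word in their 3′ untranslated regions (3′ UTRs). The 8-letter word CCTCTGAA and its 7-letter parts CTCTGAA and CCTCTGA were found in an earlier analysis of these same lowered genes, so their presence there is a description, with no test. They were searched on the sense strand of the longest annotated 3′ UTR of each gene (GENCODE M21, GRCm38). Of 123 lowered genes with a 3′ UTR, 83 (67.5%) held a 7-letter word, against 22.7% of 326 raised genes, 32.1% of 501 table genes not called and 25.6% of 21020 annotated genes. The 8-letter word was in 31 lowered genes (25.2%), against 3.4% of raised and 5.0% of annotated genes. In coding sequence the 7-letter words were in 25.2% of lowered, 24.8% of raised and 25.5% of annotated genes, shares that lie close together. Quaking words in the 3′ UTR (ACTAAC or ACTAAT) were in 35.0% of lowered, 31.0% of raised and 32.0% of annotated genes.

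The contrast was also present between 3′ UTRs of like length. In 3′ UTRs under 500 nt, 43.5% of 23 lowered genes held a 7-letter word, against 6.4% of annotated genes. From 500 to under 1500 nt the shares were 63.0% and 20%, and from 1500 to under 3000 nt 83.9% and 39.2%. At 3000 nt or more the shares, 78.3% and 62.9%, were closest. Among lowered genes the median fold was 0.523 in the 31 with the 8-letter word, 0.530 in the 52 with a 7-letter word alone and 0.506 in the 40 with neither, from the authors' deposited table. Their median control means were 991, 1095 and 476 normalized counts, and since the folds are those of called genes only, they do not show whether the fall follows the word.

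**Figure D4:**
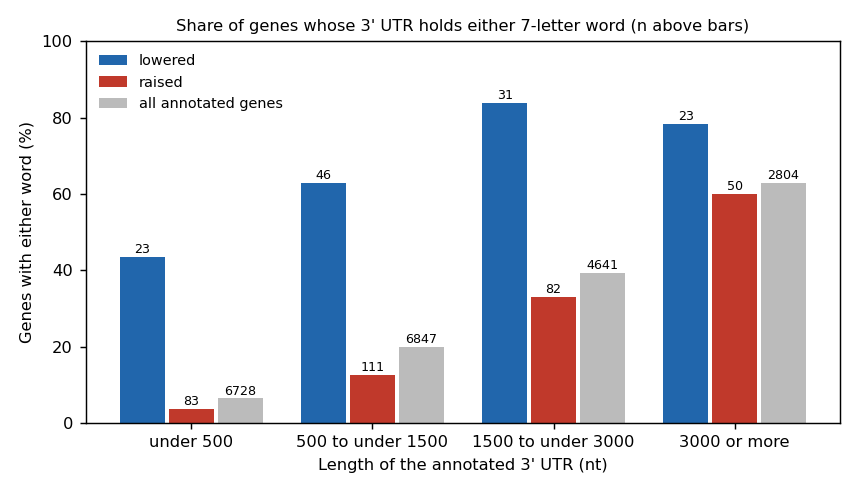
Percentage of genes whose annotated 3′ UTR holds CTCTGAA or CCTCTGA (vertical) by length of the 3′ UTR (horizontal), for lowered genes (blue), raised genes (red) and all annotated genes (grey), with the number of genes above each bar. Lowered genes are above all annotated genes in each length class, by 43.5% against 6.4% in the shortest and 78.3% against 62.9% in the longest.

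Qk carries the word in 1 of its isoforms. Of 3 annotated Qk transcripts with a 3′ UTR, the 8-letter word is in the one that codes for 341 residues, the length of the Qk5 protein, and starts at base 16 after the stop codon. It is in neither the transcript for 325 residues nor the one for 319. No source used here gives the siRNA sequences, so whether the word matches them was not tested. Sites of lowered genes are shown with 10 bases on each side and the word in capitals, to let the surroundings be compared. In order they lie at chr17:10209582-10209609, minus strand, chr7:30224179-30224206, minus strand, chr6:137837409-137837436, plus strand, chr3:108387735-108387762, plus strand, chr3:103064470-103064497, plus strand, and chr1:77373624-77373651, minus strand (GRCm38).
Qk: gaccttctgaCCTCTGAActcttcaccc
Tbcb: tgacacagccCCTCTGAAtgcctgtggc
Dera: gtgaagattcCCTCTGAAaaaaactcag
Psrc1: ccagggctgaCCTCTGAAgtagagacta
Nras: ctggctttgtCCTCTGAAaagcagttta
Epha4: ttgtcttcgcCCTCTGAAattaaaggaa
The word lies 37 bases into a 3′ UTR of 102 nt in Tbcb and 293 bases into one of 3727 nt in Nras. These genes had folds of 0.408 (Tbcb), 0.394 (Dera), 0.431 (Psrc1), 0.508 (Nras) and 0.470 (Epha4) in the authors' deposited table.

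Exon use changed as well as level. An exon bin is a piece of exon that is kept or left out as 1 unit by every annotated transcript of its gene, and the authors' deposited table gives a log2 fold of its use, relative to its gene, for each depletion. It gives 1 DEXSeq p over the 3 conditions, so a called bin differed somewhere among them, and the Qk5 log2 fold adds a direction but is not itself tested. At an adjusted p under 0.05, 231 of about 142000 bins were called (0.163%), in 192 genes. In Qk5 depletion 116 of them were used more (0.0817% of bins tested), 111 less (0.0782%), and 4 had a log2 fold of 0. For 150 the Qk5 log2 fold was larger in size than the Qk6/7 one, and for 69 it was at least 1 in size, against 21 for Qk6/7, which shares its controls. For 37 it was at most 0.1, so those calls carry almost no Qk5 change.

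Called bins of different kinds had different log2 folds. The table with kinds of bin holds 3737 bins with an adjusted p, from 228 genes, of which 6.18% were called, so the shares by kind are shares within these genes and not of all bins tested. Short internal exons, up to 200 nt and separate from any neighbouring bin, are the kind to which classical cassette exons belong. They were sorted by length and position alone, so exons that are always kept are among them. Among those with a length that is a multiple of 3, whose skipping keeps the reading frame, 27 of 999 were called, 24 of them with a log2 fold of at least 1 in size. Among those with other lengths 18 of 1206 were called, 4 of them that far, and 14 of the 18 were used less. Last bins were called most often, 64 of 215 (29.8%), but their median log2 fold was 0.24 in size, against 1.53 for the called frame-keeping exons. Called last bins had a median length of 2454 nt and called frame-keeping exons one of 96 nt, and the part of length in these sizes was not tested. Among bins not called the median sizes of the same kinds were 0.12 and 0.11, which lie close together. Separate internal bins over 200 nt were used more in 34 of 51 cases, and bins abutting another were used less in 41 of 63. Of 8 called first bins none reached a log2 fold of 1.

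**Figure D5:**
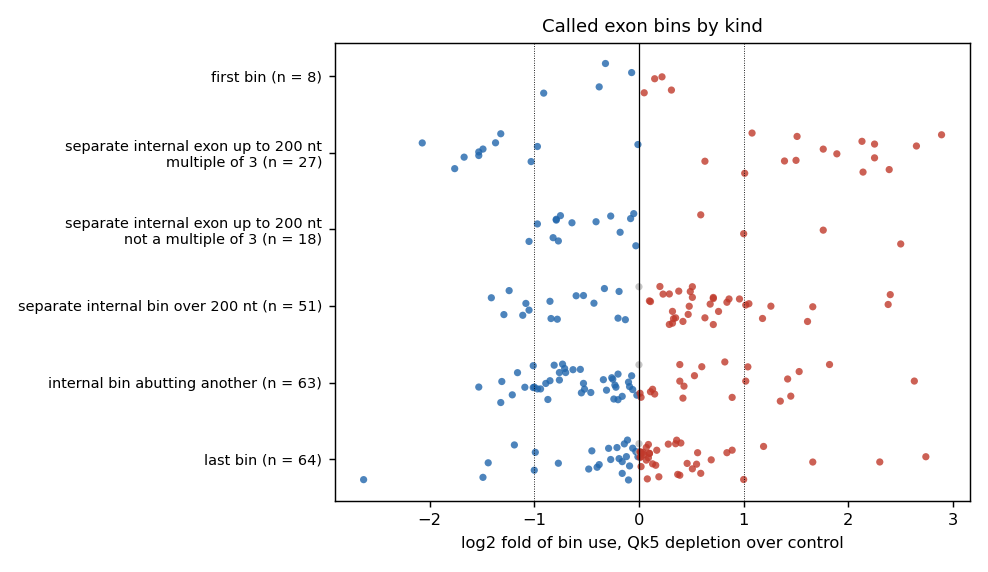
log2 fold of bin use, Qk5 depletion over control (horizontal), for called bins by kind, 1 point per bin, red where used more and blue where used less, with dotted lines at 1 and -1. The bin of Exoc1, at 13.79, lies outside the axis and is not drawn. Frame-keeping short exons lie mostly beyond the dotted lines, 24 of 27, while last bins cluster near 0.

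Among exons used more, Map4k4, a kinase upstream of JNK, had the smallest adjusted p of the short exons, with a log2 fold of 1.76 for an exon of 162 nt (1.86e-32 by the authors' DEXSeq). The other 33 bins of Map4k4 with an adjusted p lay between -0.27 and 0.28 in the authors' deposited table. Rai14, a reported Quaking target that binds actin, had an exon of 87 nt at 2.14 (adjusted p = 1.47e-15 by the authors' DEXSeq), and Sorbs2, an adaptor of Z-discs and focal adhesions, one of 93 nt at 2.39, in the authors' deposited table. The scaffold genes Phldb1 and Erbb2ip each had an exon at 2.25, and Bin1, a membrane-bending protein of T-tubules, had one at 2.13, in the authors' deposited table. Exoc1, an exocyst subunit, is given a log2 fold of 13.79 for an exon of 45 nt. The authors' deposited table holds no counts behind it, so only its direction is used. Long bins used more included one of 1717 nt in the dynein adaptor gene Bicd2 (2.63, adjusted p = 3.17e-40 by the authors' DEXSeq), the last bin of Syngr1 (2.30) and bins of Depdc1a (2.40) and Ank2 (2.38), by the authors' deposited table. Dclk1, a microtubule-associated kinase, had 5 called bins, at 1.53 to 1.89 in the authors' deposited table. Unlike those of Map4k4, bins not called ran from -1.13 to 1.71 in Dclk1 and from -12.25 to 0.49 in Rai14.

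Among exons used less, Myof (myoferlin), a membrane protein of myoblast fusion, had an exon of 39 nt at -2.07 (adjusted p = 2.34e-11 by the authors' DEXSeq), while its 53 bins that were not called lay between -0.14 and 0.18 in the authors' deposited table. Lrrfip1 had an exon of 72 nt at -1.53, the polarity kinase gene Mark3 one of 27 nt at -1.49 and the JNK scaffold gene Spag9 one of 39 nt at -1.37 in the authors' deposited table. Ppp2r5c, a regulatory subunit of protein phosphatase 2A, had one of 117 nt at -1.76, and the cytolinker gene Dst one of 111 nt at -1.67, in the authors' deposited table. The last bin of the casein kinase gene Csnk1d, of 831 nt, had the lowest value, -2.63 in the authors' deposited table. Capzb, an actin-capping subunit and reported Quaking target, had an exon of 113 nt at -0.82 in Qk5 and 1.15 in Qk6/7 depletion, by the authors' deposited table. Tropomyosin genes had bins in both directions, with 1.61, -1.21 and -1.03 for Tpm1 and 0.59 and -0.64 for Tpm2 in the authors' deposited table.

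Sequences of the frame-keeping exons most clearly moved are shown so that their lengths and letters can be compared. No genome of the authors' build (mm9) was used here, so each was taken from a GENCODE M21 transcript of the gene with an exon of the same length next to an exon as long as the neighbouring bin, which placed 35 of the 45 called short exons. Positions are those of the authors' deposited table (mm9). Capitals mark ACTAA, the core Quaking word, which was found in 2 of the 16 exons used more that were placed and 0 of the 19 used less. How often exons that were not called hold it was not counted, so no link between word and direction is drawn. Quaking words in the flanking introns were not analysed here. Those used more lie at chr1:40058275-40058436, plus strand (Map4k4), chr8:46826841-46826933, plus strand (Sorbs2), chr8:98236225-98236263, plus strand (Ndrg4), and chr5:76986844-76986888, plus strand (Exoc1). Those used less lie at chr19:38044397-38044435, minus strand (Myof), chr1:92999824-92999895, plus strand (Lrrfip1), chr12:112890169-112890195, plus strand (Mark3), chr11:93974577-93974615, plus strand (Spag9), and chr9:75043933-75044007, plus strand (Myo5a).
Map4k4: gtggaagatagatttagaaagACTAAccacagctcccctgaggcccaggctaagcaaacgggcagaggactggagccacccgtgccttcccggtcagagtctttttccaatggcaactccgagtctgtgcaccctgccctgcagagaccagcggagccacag
Sorbs2: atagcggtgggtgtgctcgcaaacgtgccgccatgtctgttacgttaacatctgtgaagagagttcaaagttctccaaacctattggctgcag
Ndrg4: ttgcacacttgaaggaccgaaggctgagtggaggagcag
Exoc1: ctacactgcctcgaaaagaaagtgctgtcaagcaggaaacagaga
Myof: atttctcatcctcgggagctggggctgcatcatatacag
Lrrfip1: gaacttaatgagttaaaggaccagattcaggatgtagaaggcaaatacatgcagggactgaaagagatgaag
Mark3: aaacatgtcattcaggtttatcaaaag
Spag9: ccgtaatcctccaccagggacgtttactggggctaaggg
Myo5a: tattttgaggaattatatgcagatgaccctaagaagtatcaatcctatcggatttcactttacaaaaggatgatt

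Some genes changed in both readouts. Of the 192 genes with a called bin, 20 were also called for level in Qk5 depletion (10.4%, against 2.97% of all genes tested), 18 raised and 2 lowered. The lowered ones were Gas2l1, which links actin to microtubules (2477 to 1278 normalized counts, last bin at 2.74), and Fmr1 (2203 to 1142, a bin of 900 nt at 1.45), in the authors' deposited table. Ndrg4, a cytoplasmic protein of heart and brain, rose from 1983 to 3046 and used its exon of 39 nt more, at 1.5 in the authors' deposited table. The motor gene Myo5a rose from 2827 to 4628 and used its exon of 75 nt less, at -1.32 in the authors' deposited table. Hgf rose and had a bin at -1.16, Vcan rose and had one at 0.47, and Lamp2 rose with one at 0.32 in Qk5 and -0.69 in Qk6/7 depletion, by the authors' deposited table. Others among the 18 raised were near-identical zinc finger genes of chromosome 2, whose reads may be shared. They are 0610010B08Rik, 100043387, Gm14326, Gm14434, Gm6710 and Gm14308, the last with more than 1 entry. Each entry is counted separately, so the 10.4% is not a share of independent genes. The part of read level in that share was not tested.

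Qk6/7 depletion was measured against the same control samples, so its folds are set beside these without a test of the difference. Serpinb7 had a fold of 1.06 in Qk6/7 depletion, against 22.5 in Qk5 depletion, by the authors' deposited table. Slurp1 had 0.486 against 14.5 and Tmem184a 0.893 against 26.3 by the authors' deposited table. Hdc had 0.594 against 6.78 and Slc15a3 0.518 against 7.04, and none of these 5 genes was called for Qk6/7 in the authors' deposited table. Of the 360 raised genes 19 were also called as raised in Qk6/7 depletion and 17 as lowered. Of the 133 lowered genes 0 were called as raised there and 14 as lowered. The share of all genes called in Qk6/7 depletion was not counted, so whether these overlaps are large or small cannot be said. Arpc1b (1.88) and Fbn1 (2.00) were called as raised there also, and Aldh3a1 (0.436) as lowered, by the authors' deposited table. Scn7a (0.501) and Hpgd (0.367), raised in Qk5 depletion, were called as lowered there. Dcn (0.916), Laptm4b (0.947), Ccng1 (0.732) and Nras (0.878) were not called there, and the adjusted p of a gene that is not called does not show that its level stayed the same.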

How the data were processed

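RNA of C2C12 cells was sequenced after ribosomal RNA depletion. The submitters' processing notes name bedtools, Bowtie2, DESeq, SAMtools and TopHat2, with the mm9 build. Versions, counting, strand setting, annotation and the joining of runs were stated in none of the sources used here, so reads of overlapping antisense genes cannot be told apart. Per the file headers, the expression table holds the authors' mean signal per group (normalized counts), the fold (a ratio), its log2, a p-value with its adjusted p-value, and a direction score. The splicing tables hold the authors' log2 fold per bin and a DEXSeq p-value. They hold 0 columns of values per sample, so no model was refitted, and calls are the authors' at an adjusted p under 0.05.

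Numbers of genes and bins tested were recovered from the adjusted p-values by Benjamini-Hochberg arithmetic, tested on simulated data. One broken row of the expression data was rejoined. Of 1036 genes 983 matched a GENCODE symbol. Python 3.11.15 with pandas 2.3.3 and numpy 2.4.6 was used. Named genes were Qk, the 12 largest rises and falls in mean, the 8 largest rises and falls in log2 fold from a mean of 20 to the table's median, the 10 smallest adjusted p, and up to 6 called members of each list. Sarcomere and interferon genes were left out. Named bins were the 12 largest in each direction, those of reported targets and those of genes called in both readouts. Other genes, and the gene families, neighbours and words, were chosen after their values were seen. The members and all 32 lists were chosen with earlier results of these data known. Some genes that the rule names are not reported here.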

Additional observations from a re-analysis of the deposited data

How the results depend on the processing

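The 360 raised and 133 lowered genes became 230 and 77 at an adjusted p under 0.01, 131 and 88 at or above the table's median level, and 237 and 55 with a log2 fold of at least 1 in size. At the median level the calls are thus less one-sided. Bins used more went from 116 to 63, and bins used less from 111 to 62, with a log2 fold of at least 0.5 in size. Bins used less numbered 68 among those larger in size in Qk5 than in Qk6/7 depletion. The other alternatives run, an adjusted p under 0.1, a mean of at least 20, and for bins an adjusted p under 0.01, left these counts within 1.5 times. A pseudocount of 10 added to each mean cannot change a direction, and it made the log2 fold of 8 of the 112 named genes smaller by over 1.5 times. Lists and words were not recounted at other thresholds. No paired analysis was possible because the deposited tables hold no values per replicate, and leaving out each replicate was not run for the same reason. Depth is unknown, so how far it limits the low genes, such as those under 20 normalized counts, cannot be given.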
